A study of Mus musculus with 18 samples.

Results

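The dystrophin-associated complex is represented here by 10 genes of the mRNA table, out of 22298 genes in that table, each with 1 row. They are the sarcoglycan genes Sgcb, Sgca, Sgcd and Sgce, the sarcospan gene Sspn, the dystroglycan gene Dag1, the dystrophin gene Dmd, the utrophin gene Utrn, and the beta-syntrophin genes Sntb1 and Sntb2. Sgcb was chosen by its counts in these same libraries, as the largest well-measured rise in knock-in testis over wild-type testis. Its difference is therefore described and not tested. The other 9 genes entered by name as partners of its protein. The tested libraries were 3 from whole testis of adult C57BL/6 mice with a knock-in allele of Taf7l (TKI), and these were set against 3 from whole testis of adult C57BL/6 mice with the wild-type gene (TWT). Taf7l is X-linked and encodes a germ-cell relative of a subunit of the basal transcription factor TFIID, and the labels do not say which codon the allele changes. The labels do not state that each library is a separate animal, and p-values here reflect library-to-library spread only, which may be technical. Pachytene spermatocyte and round spermatid samples of both genotypes are named in the labels and were not analysed here.

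The complex spans the plasma membrane and ties the actin cytoskeleton to the extracellular matrix. Dystrophin, or its autosomal relative utrophin, binds actin inside the cell and the beta subunit of dystroglycan at the membrane, while the glycosylated alpha subunit of dystroglycan binds laminins outside. The sarcoglycans and sarcospan form a membrane subcomplex that stabilises this link, and the syntrophins are adaptors on its inner face. In skeletal muscle, loss of beta-sarcoglycan removes the other sarcoglycans from the membrane and causes a limb-girdle muscular dystrophy. In muscle the subcomplex is built with alpha-sarcoglycan, encoded by Sgca, and in many other tissues epsilon-sarcoglycan, encoded by Sgce, can take its place.

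Sequence around an annotated start is shown for Sgcb, the gene with the large difference, and for its partners Sgca and Sgcd as a contrast. The windows are from RefSeq on GRCm38.p6, the assembly also called mm10, and run from 250 bases before to 50 bases after the annotated start. Windows were found for 7 of the 10 genes. Sgcb lies at chr5:73632749-73647737, Sgca at chr11:94962777-94976327 and Sgcd at chr11:46971077-47989451, all transcribed from the minus strand. The windows are chr5:73647688-73647987, chr11:94976278-94976577 and chr11:47379276-47379575, printed 5′ to 3′ on the gene's strand. The Sgcb and Sgca windows lie at the 5′ end of the stated gene span. The Sgcd window lies inside its span, at an internal annotated start, so it is not the matching position. Capitals mark matches, on either strand, to TATAAA (the core promoter element bound by TBP), CCAAT (bound by NF-Y), GGGCGG (the GC box bound by SP factors), TGACGTCA (the cyclic AMP response element) or ATGGCGG (a core bound by YY1), and none of the matches shown overlap each other.
Sgcb: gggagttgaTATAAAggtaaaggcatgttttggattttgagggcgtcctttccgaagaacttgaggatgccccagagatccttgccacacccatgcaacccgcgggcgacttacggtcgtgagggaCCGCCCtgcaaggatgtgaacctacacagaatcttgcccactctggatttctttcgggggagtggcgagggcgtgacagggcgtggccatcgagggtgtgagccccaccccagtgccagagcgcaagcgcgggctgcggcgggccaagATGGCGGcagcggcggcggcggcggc
Sgca: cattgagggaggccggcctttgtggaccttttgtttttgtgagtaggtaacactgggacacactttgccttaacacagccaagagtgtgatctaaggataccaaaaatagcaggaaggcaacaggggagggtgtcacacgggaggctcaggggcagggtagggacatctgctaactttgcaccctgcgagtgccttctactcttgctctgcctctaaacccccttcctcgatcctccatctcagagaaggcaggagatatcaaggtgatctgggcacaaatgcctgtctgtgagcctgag
Sgcd: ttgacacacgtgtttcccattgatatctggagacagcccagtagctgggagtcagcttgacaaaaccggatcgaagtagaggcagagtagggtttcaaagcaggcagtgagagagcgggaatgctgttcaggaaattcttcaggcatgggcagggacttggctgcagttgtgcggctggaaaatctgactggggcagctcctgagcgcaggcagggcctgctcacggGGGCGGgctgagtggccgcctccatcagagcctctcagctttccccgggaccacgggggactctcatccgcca

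The Sgcb window holds TATAAA with its first base at -241, a GC box on the opposite strand at -124, and ATGGCGG at 25, counted from 1 at the annotated start with no 0. The last of these was looked for after the window had been read. This ATGGCGG match lies past the annotated start and opens with ATG, the letters of a start codon. Whether translation starts there was not checked. The Sgca window holds none of the 5 motifs, and the Sgcd window, at its internal start, holds a GC box at -23. Among 32851 windows of the same length, TATAAA occurs in 13.6%, CCAAT in 37.4%, GGGCGG in 35.7%, TGACGTCA in 1.79% and ATGGCGG in 4.05%. GC content is 62.7% for Sgcb, 52.7% for Sgca and 59.0% for Sgcd, against a median of 52.7% over all windows. Sgcb has 24 CpG dinucleotides in its window, Sgca 4 and Sgcd 12, against a median of 7. Among partners whose windows are not printed, Dag1 exceeds Sgcb, with 30 and 47 CpG and 69.7% and 75.3% GC. The windows of Sspn, Dmd and Utrn have 2 to 14 CpG and 45.7% to 62.7% GC. A window rich in GC and CpG is therefore not particular to Sgcb among these genes. These matches describe the letters of the windows and do not show binding.

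Depth was similar across the genotypes, from 18602187 to 21446420 counts in the TKI libraries and from 17431309 to 18770025 in the TWT libraries of the mRNA table. Between 18262 and 18427 genes were detected per library. Every pair of same-genotype libraries differed by more than sampling noise, with 5.61 to 10.9 chi-square units per degree of freedom. Taf7l itself had 472, 525 and 581 counts in TKI libraries, against 507, 551 and 531 in TWT libraries (log2 fold change -0.11 ± 0.08 SE; edgeR quasi-likelihood test, adjusted p = 0.632), and gene counts cannot show the altered codon. Defining markers of the tissue were present, with all 7 pachytene spermatocyte genes and all 7 spermatid genes tested. Most markers of skeletal muscle, the tissue in which the complex is best known, were scarce or missing. Ckm and Tnnt3 had 0 counts in each of the 6 libraries, and 2 of 9 such genes had enough counts to be tested. The tested ones were Actn3, with 271 to 534 counts per library, and Myh1, with 48 to 101.

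Sgcb, which encodes beta-sarcoglycan, was counted 368, 399 and 448 times in TKI libraries, against 107, 124 and 94 times in TWT libraries. In FPKM, the authors' level per gene length and library size, it stood at 4.05, 4.31 and 4.27 in TKI libraries and at 1.16, 1.37 and 1.10 in TWT libraries. The lowest TKI library was well above the highest TWT library, and the 3 TKI values lay close together. In CPM, counts over the TMM-scaled library total, its level was 20.6 ± 0.420 in TKI testis and 5.91 ± 0.604 in TWT testis (SD, n = 3 each). The fitted log2 fold change was 1.80 ± 0.12 (SE), a 3.49-fold higher level with a 95% interval from 2.91 to 4.18. These are the values by which the gene was chosen. The interval takes no account of that choice, which can overstate the size. Among genes with a mean of at least 1 CPM its fitted fold change ranked 7. Tab2, just above it in that order, had 1.90 ± 0.43 and Nup107, just below it, had 1.76 ± 0.80, both with a far larger standard error and both named after their values were seen.

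**Figure D1:**
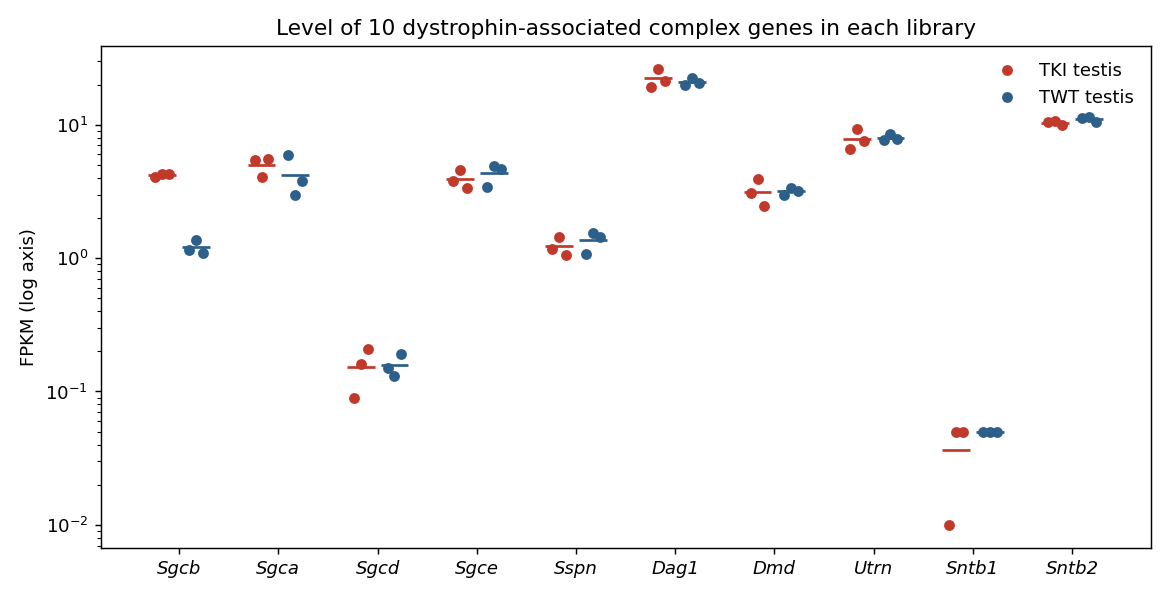
FPKM of the 10 complex genes on a log axis, with a point for each of the 3 TKI and 3 TWT libraries and a bar at the genotype mean. Sgcb lies between 4.05 and 4.31 in TKI libraries and between 1.10 and 1.37 in TWT libraries, while the points of Dag1, Dmd, Utrn, Sgca, Sgce, Sspn and Sntb2 overlap between genotypes.

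Of the 9 partners, 7 had enough counts to be tested, and 0 passed at an adjusted p under 0.05 by edgeR, where 0.982% of all tested genes passed. DESeq2 and limma on FPKM also called 0 partners, where DESeq2 called 4.22% of the genes it gave an adjusted p. Only Sntb2 had an unadjusted p under 0.05 by edgeR, as did 12.9% of all tested genes. The partners' log2 fold changes ran from -0.14 for Sntb2 to 0.32 for Sgca. The highest upper bound of the 95% intervals of the tested partners was that of Sgca, 1.86-fold. The median log2 fold change of all tested genes was 0.00.

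Sgca encodes alpha-sarcoglycan, the muscle partner of beta-sarcoglycan in the subcomplex. It had 5.48, 4.06 and 5.54 FPKM in TKI libraries, against 5.92, 2.99 and 3.78 FPKM in TWT libraries. In FPKM the groups overlapped, with the highest value in a TWT library. In CPM they overlapped too, but the highest value was in TKI library 3, with 8.37 against 7.15 in TWT library 1. Its log2 fold change was 0.32 ± 0.26 (SE; edgeR, adjusted p = 0.673). The interval from 0.840-fold to 1.86-fold leaves room for a small fall or a moderate rise. Counts ran from 77 to 178 per library, and Sspn, with 116 to 165, had a smaller SE of 0.17. The parts of depth and of spread between libraries in this width were not tested.

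Sgce encodes epsilon-sarcoglycan and is an imprinted gene expressed from the paternal allele. It had 3.80, 4.56 and 3.36 FPKM in TKI libraries, against 3.40, 4.92 and 4.62 FPKM in TWT libraries. The ranges overlapped almost fully, and the log2 fold change was -0.13 ± 0.17 (SE; edgeR, adjusted p = 0.826). Sspn, the gene of the tetraspan-like sarcospan, had 1.17, 1.45 and 1.06 FPKM in TKI libraries, against 1.07, 1.55 and 1.45 FPKM in TWT libraries. It too overlapped between genotypes, at a log2 fold change of -0.14 ± 0.17 (SE; by edgeR the adjusted p = 0.816).

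Sgcd, the gene of delta-sarcoglycan, which assembles directly with beta-sarcoglycan in muscle, was near the detection limit in both genotypes. It had 4, 7 and 10 counts in TKI libraries, against 7, 6 and 9 counts in TWT libraries, and was not tested. The ratio of its pooled counts relative to depth was 0.887, with a 95% exact interval from 0.464 to 1.69 that covers counting error only. The fold change of Sgcb lies outside that interval, but variation between libraries is left out of it, so such a change is not excluded.

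The sum of FPKM over Sgcb, Sgca, Sgcd and Sgce was 13.4, 13.1 and 13.4 in TKI libraries, against 10.6, 9.41 and 9.69 in TWT libraries. Sgcb made up 30.2%, 32.9% and 31.9% of that sum in TKI libraries and 10.9%, 14.6% and 11.4% in TWT libraries. Relative to Sgce, Sgcb had a ratio of FPKM between 0.945 and 1.27 in TKI libraries and between 0.238 and 0.341 in TWT libraries. Relative to Sgca the ratio lay between 0.739 and 1.06 in TKI libraries and between 0.196 and 0.458 in TWT libraries. Per length, Sgcb was near Sgca and Sgce in TKI testis and below both in TWT testis. These ratios rest on the Sgcb values by which the gene was chosen and are a description.

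Dag1 encodes dystroglycan, from which both the alpha and the beta subunit are cut, and it was the most abundant of the 10 genes. It had 19.1, 26.3 and 21.3 FPKM in TKI libraries, against 19.8, 22.6 and 20.7 FPKM in TWT libraries. Both the lowest and the highest library were TKI. With 2091 to 2810 counts per library the interval was narrow, from 0.948-fold to 1.22-fold (log2 fold change 0.11 ± 0.08 SE; edgeR, adjusted p = 0.661).

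Dmd, the X-linked dystrophin gene, had 3.08, 3.93 and 2.44 FPKM in TKI libraries, against 2.96, 3.35 and 3.18 FPKM in TWT libraries. The TWT values fell within the TKI range, and the log2 fold change from counts was -0.03 ± 0.12 (SE; edgeR, adjusted p = 0.960). Without TKI library 1 or 3 its sign turned, to 0.04 and 0.02, so no direction is given. Utrn, the gene of utrophin, had 6.62, 9.25 and 7.62 FPKM in TKI libraries, against 7.66, 8.56 and 7.83 FPKM in TWT libraries. Its groups overlapped, the log2 fold change from counts was 0.08 ± 0.08 (SE; edgeR, adjusted p = 0.760), and on the log2(FPKM + 0.1) scale it was -0.05, so its direction depends on the scale.

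Sntb2 encodes beta-2-syntrophin, an adaptor that binds dystrophin and utrophin. Its counts were 1701, 1906 and 2093 in TKI libraries, against 2014, 2054 and 1809 in TWT libraries, from different library totals. As CPM these were 93.5, 98.5 and 98.4 in TKI libraries and 110, 108 and 103 in TWT libraries. The 2 genotypes did not overlap on this scale, as was so for 18.5% of all tested genes. In FPKM they did overlap, with 10.41, 10.64 and 10.01 in TKI libraries and 11.18, 11.35 and 10.55 in TWT libraries. The difference was small, at -0.14 ± 0.06 on the log2 scale (SE), and did not pass (edgeR, adjusted p = 0.335). Sntb1, the gene of beta-1-syntrophin, had 1, 6 and 7 counts in TKI libraries, against 6, 6 and 5 counts in TWT libraries, too few to test. Its pooled ratio was 0.765 with a 95% exact counting interval from 0.349 to 1.65.

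**Figure D2:**
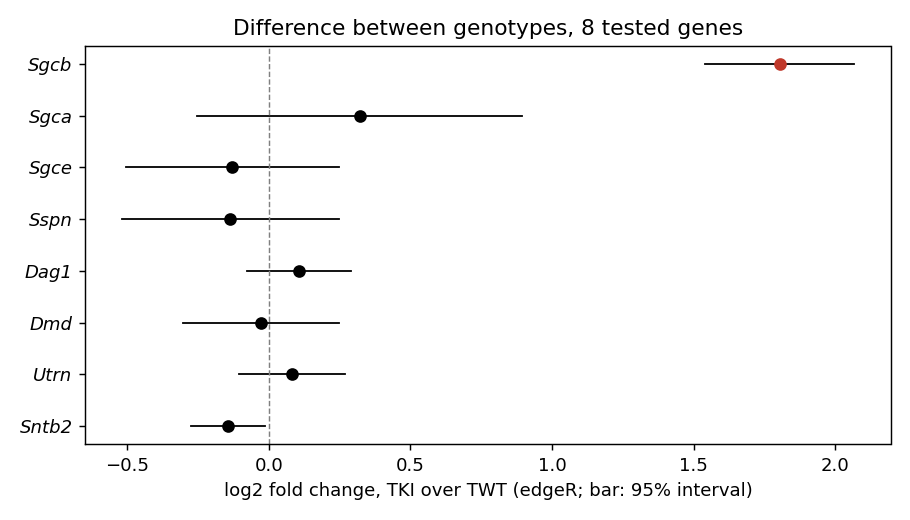
Fitted log2 fold change of TKI over TWT for the 8 tested genes, with bars for the 95% interval from edgeR. Sgcb is at 1.80 with an interval from 1.54 to 2.07 that takes no account of its choice for this difference. The intervals of 6 of the 7 partners include 0, with Sntb2 ending at -0.01.

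For the partners, the authors' deposited table has log2 ratios of mean FPKM from -0.45 for the barely detected Sntb1 to 0.25 for Sgca. Adjusted p-values of the partners in the authors' deposited table run from 0.329 for Sntb2 to 1. For Sgcb the authors' deposited table has a log2 ratio of 1.80.

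By level per length, the order in TKI testis was Dag1, Sntb2, Utrn, Sgca, Sgcb, Sgce, Dmd, Sspn, Sgcd and Sntb1. Neighbours overlapped between libraries from Sgca through Sgcb and Sgce to Dmd, and were apart elsewhere in that order. In TWT testis the order was Dag1, Sntb2, Utrn, Sgce, Sgca, Dmd, Sspn, Sgcb, Sgcd and Sntb1. There the neighbours from Sgce through Sgca to Dmd overlapped, as did Sspn and Sgcb. Sgcb held rank 5 in TKI testis and rank 8 in TWT testis. By mean FPKM it exceeded 44.4% of tested genes in TKI testis and 22.5% in TWT testis, whereas Dag1 exceeded 77.7% and 76.7%.

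The ratio of count to FPKM gives the transcript length that the authors' FPKM implies for a gene, if its library total is that of the mRNA table. For Sgcb this length was 4885, 4900 and 4892 bases in TKI libraries, against 4914, 4880 and 4902 bases in TWT libraries. It varied little over the 6 libraries, so the Sgcb difference is as large in FPKM as in counts. Sspn was as even, from 5737 to 5776 bases. Sgca was less even, from 1179 bases in TWT library 1 to 1498 bases in TKI library 3, so its FPKM and counts rank the libraries differently. For Dmd, which has long and short forms from internal promoters, the implied length was 4747, 5145 and 6402 bases in TKI libraries and 5364, 5391 and 5538 bases in TWT libraries. For Utrn it averaged 9094 bases in TKI testis and 8384 bases in TWT testis, which is where its counts and its FPKM part in direction. How the authors derived the length is not given in the sources used here, so these values do not establish which forms were made.

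Within a genotype, most partners were highest in the same library. TKI library 2 was the highest of its genotype for 6 of the 7 tested partners, and TWT library 2 for 5 of 7. Among the 6, Sntb2 was nearly level between TKI libraries 2 and 3, at 0.025 and 0.024. The share of all tested genes highest in these libraries was not computed. Low libraries were less shared: TKI library 1 was lowest for Dag1, Dmd, Utrn and Sntb2, and TKI library 3 for Sgce and Sspn. Sgce deviated from its genotype mean by 0.01, 0.21 and -0.22 on the log2 CPM scale in TKI libraries and by -0.28, 0.20 and 0.08 in TWT libraries. Sspn deviated by -0.03, 0.22 and -0.19 in TKI libraries and by -0.28, 0.18 and 0.10 in TWT libraries, a pattern close to that of Sgce. Sgca went the other way, with 0.19, -0.50 and 0.32 in TKI libraries and 0.40, -0.40 and 0.00 in TWT libraries. Sgcb deviated by at most 0.03 in TKI libraries and by -0.01, 0.15 and -0.14 in TWT libraries.

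Cell type markers moved between libraries as well. The summed CPM of 9 Sertoli cell genes was 1386, 1834 and 1497 in TKI libraries and 1389, 1636 and 1478 in TWT libraries, highest in library 2 of each genotype. For 7 spermatid genes the sum was 8192, 6519 and 7947 in TKI libraries and 7875, 7095 and 6367 in TWT libraries, lowest in library 2 among the TKI and in library 3 among the TWT. Such sums follow their most abundant genes more than the whole list. In the Sertoli list this was Clu, with 1008 CPM in TKI testis and 930 CPM in TWT testis. In the spermatid list these were Prm1 (3111 and 3847 CPM) and Prm2 (2241 and 1555 CPM), in the same order of genotypes. The part of cell composition in the partners' spread was not tested, and in whole tissue fewer cells of a type and less RNA per cell cannot be told apart.

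**Figure D3:**
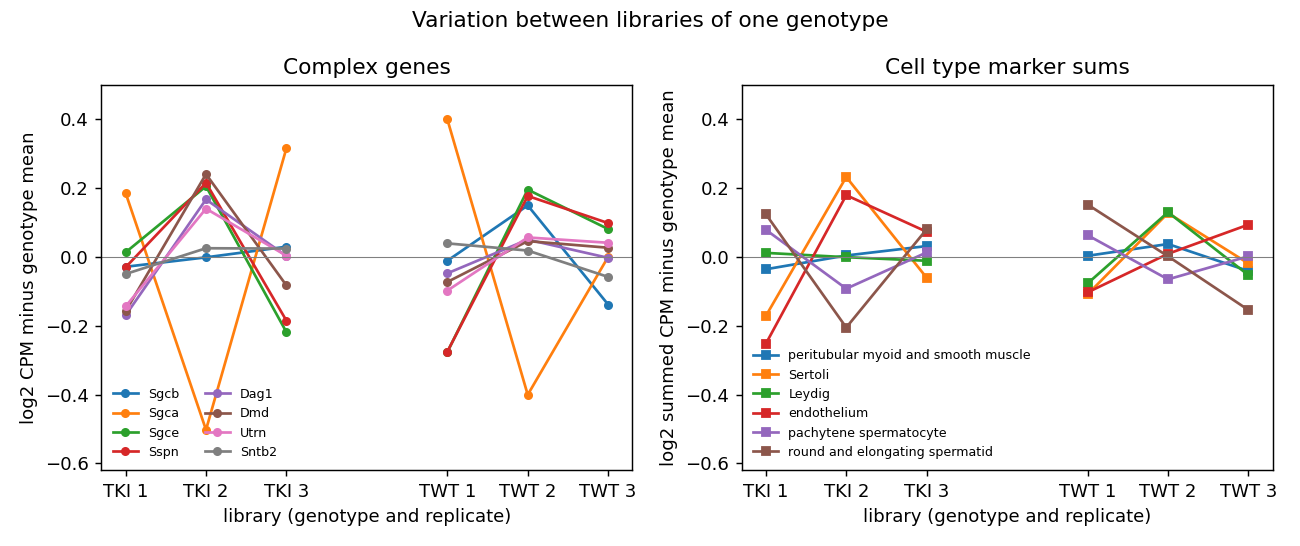
Left, log2 CPM of the 8 tested genes minus the mean of their genotype; right, the same for summed CPM of 6 marker lists; the x axis gives the library, and lines only join points of 1 gene or list within a genotype. Sgce and Sspn run together and Sgca runs against them, with -0.50 in TKI library 2 where Sgce has 0.21.

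Smooth muscle is a tissue with much of this complex, and peritubular myoid cells are its testicular counterpart. The 12 marker genes of peritubular myoid cells and smooth muscle had log2 fold changes from 0.04 to 0.57 (Tpm2, a tropomyosin), around a median of 0.21. None passed over all genes by edgeR, where 0.982% of all tested genes passed, and 6 had an unadjusted p under 0.05, as had 12.9% of all tested genes. Their summed CPM was 697, 716 and 730 in TKI libraries, against 654, 669 and 634 in TWT libraries, which did not overlap. Gene by gene, 5 of the 12 did not overlap, against 18.5% of all tested genes. Actg2, named for its level, was the largest part of the sum. It averaged 362 CPM in TKI testis and 351 CPM in TWT testis, with a log2 fold change of 0.04 ± 0.06 (SE). Acta2, smooth muscle actin, averaged 42.6 FPKM in TKI testis, and its log2 fold change was 0.17 ± 0.07 (SE; edgeR, adjusted p = 0.318). The part of these cells in the Sgcb difference was not tested.

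Summed CPM of the other somatic lists overlapped between genotypes for Sertoli cells, endothelium and macrophages. Endothelial sums were 55.5 to 74.8 in TKI libraries and 58.5 to 67.1 in TWT libraries, and macrophage sums 124 to 141 in TKI libraries and 121 to 149 in TWT libraries. Leydig cell sums were 1249 to 1269 in TKI libraries, against 1062 to 1226 in TWT libraries, and did not overlap. Gene by gene, 1 of the 7 Leydig genes did not overlap, against 18.5% of all tested genes. Pachytene spermatocyte sums overlapped, with 6637 to 7474 in TKI libraries and 6987 to 7637 in TWT libraries. No gene of these 5 lists was called. In the spermatid list 1 of 7 genes was called by edgeR, against 0.982% of all tested genes. This was Prm2, a protamine gene (log2 fold change 0.53 ± 0.09 SE; edgeR, adjusted p = 0.0289). The list did not move one way: 5 of its 7 genes were above 0, while Prm1, the other protamine gene, had -0.31 and Acrv1, an acrosomal gene, had -0.06, and neither passed. Tnp1 had 0.53, Tnp2 0.39 and Acr 0.25, and these did not pass either. By edgeR an unadjusted p under 0.05 was found for 5 of 7 spermatid, 3 of 7 pachytene and 2 of 7 Leydig genes, against 12.9% of all tested genes. No Sertoli, endothelial or macrophage gene had one.

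The wider pathway was described through 44 further genes, of which 40 were tested. By edgeR 0 passed in either direction, where 0.982% of all tested genes passed. An unadjusted p under 0.05 was found for 4, against 12.9% of all tested genes, and the median log2 fold change was 0.00, as it was over all tested genes. By DESeq2 2 passed, Dtnb and Plec, both higher in TKI testis, against the same 4.22%. The log2 fold changes of the 40 genes ran from -0.22 to 0.46.

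Of 8 other subunits and scaffold proteins, 6 were tested, with a median of 0.04. Dtna, the gene of alpha-dystrobrevin, a dystrophin relative that binds syntrophins, stood at a log2 fold change of 0.45 ± 0.27 (SE; by edgeR the adjusted p = 0.534). Dtnb, the gene of beta-dystrobrevin, had 0.34 ± 0.08 (adjusted p = 0.103 by edgeR). Sgcz, the zeta-sarcoglycan gene, was below the count minimum.

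All 11 laminin and other ligand genes were tested and had a median of 0.11, 6 of them above 0. Lama2, the laminin chain of muscle basement membrane, stood at 0.24 ± 0.17 on that scale (SE; by edgeR the adjusted p = 0.629). Among the other partners, Plec, the gene of the cytolinker plectin, which binds dystroglycan, had 0.33 ± 0.07 (SE; edgeR, adjusted p = 0.0599). Plec was called with the replicate numbers as a block, as were 1.13% of all tested genes. The largest value among the ligands was that of Lamb1, a laminin beta chain, with 0.42 ± 0.42 (SE; edgeR, adjusted p = 0.751). Lama2, Lamb1, Dtnb, Plec, Sgcz, Acta2, Tpm2, Prm1, Prm2, Acrv1, Tnp1, Tnp2, Acr, Actn3 and Myh1 were named after their values were seen.

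The enzymes that glycosylate alpha-dystroglycan had 19 of 19 genes tested and a median of -0.01, with values from -0.22 to 0.46. Pomt1 and Pomgnt1, which act on its O-mannose glycans, were well expressed at 105 and 70.1 FPKM in TKI testis and had log2 fold changes of -0.02 ± 0.07 and 0.00 ± 0.06 (SE). The largest values were those of Dpm2, a subunit of dolichol-phosphate mannose synthase, with 0.46 ± 0.17 (SE; edgeR, adjusted p = 0.295), and of Large2, a glycosyltransferase that extends the laminin-binding glycan, with 0.43 ± 0.22 (SE; edgeR, adjusted p = 0.447). Pomt1 and Pomgnt1 were picked for their level.

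**Figure D4:**
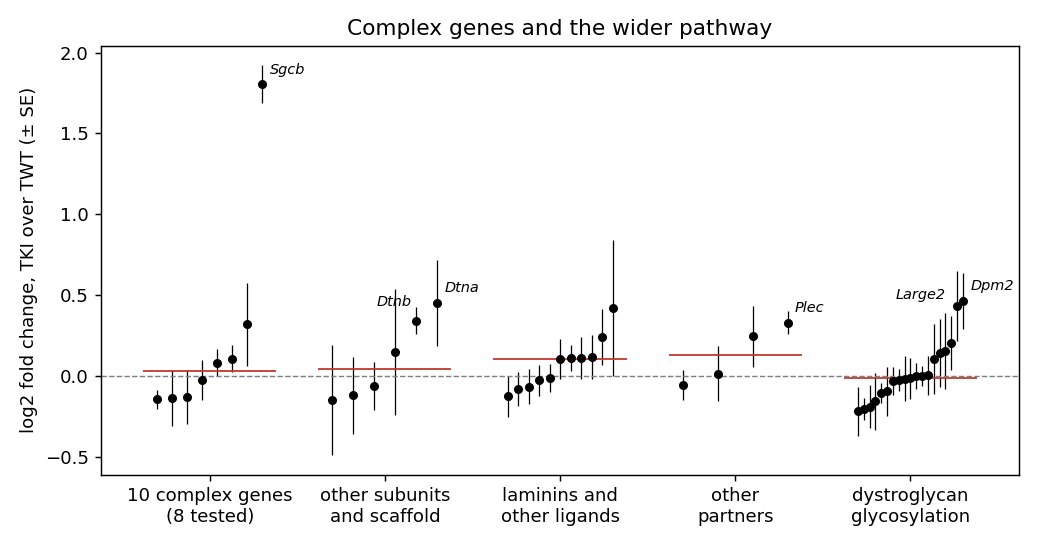
Log2 fold change of TKI over TWT with its SE for the tested genes of the complex and of 4 groups of the wider pathway, with a red bar at each group's median. Sgcb, chosen for its difference, is at 1.80, and the 40 tested genes of the wider pathway lie between -0.22 and 0.46.

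The 10 tested genes nearest to Sgcb on chromosome 5, 5 on each side, were also read from the fit. None was called by edgeR, against 0.982% of all tested genes. An unadjusted p under 0.05 was found for 4, against 12.9% of all tested genes, and their log2 fold changes ran from -0.52 to 0.33. Spata18, whose protein acts in mitochondrial quality control, starts 3643 bases beyond the 5′ end of Sgcb and had a mean of 723 CPM in TKI testis and 644 CPM in TWT testis (log2 fold change 0.17 ± 0.06 SE; edgeR, adjusted p = 0.297). Lrrc66, which ends 328 bases from the 3′ end of Sgcb, had 51, 43 and 53 counts in TKI libraries, against 19, 45 and 45 counts in TWT libraries, and these overlapped on the CPM scale too (log2 fold change 0.33 ± 0.32 SE; edgeR, adjusted p = 0.740). Further out, Dcun1d4 had 0.01 ± 0.07, Ociad1 -0.01 ± 0.06, Ociad2 -0.52 ± 0.20, Fryl -0.05 ± 0.06, Usp46 -0.23 ± 0.06, Rasl11b 0.02 ± 0.18, Scfd2 -0.09 ± 0.12 and Fip1l1 0.17 ± 0.07. Whether strand was used in counting is not given in the sources used here.

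**Figure D5:**
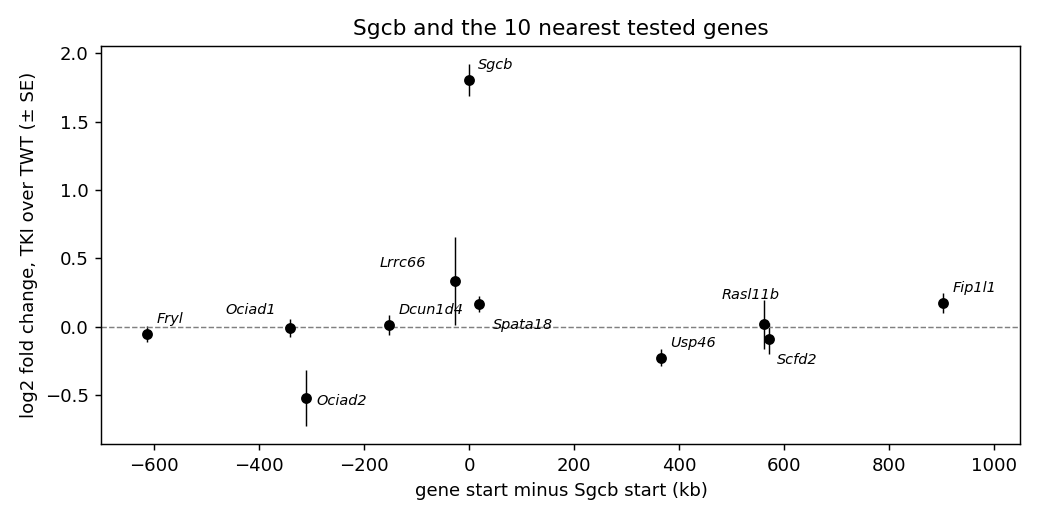
Log2 fold change of TKI over TWT with its SE for Sgcb and its 10 nearest tested genes, against distance in kilobases. The distance is between the lowest coordinate of each gene, on either strand, and that of Sgcb, which is the 3′ end of Sgcb. The neighbours lie between -0.52 and 0.33, and Sgcb at 1.80.

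The genes whose profile over the 6 libraries was most like that of Sgcb were found by the root mean square distance between log2 CPM values centred on their mean, among 14765 other genes with a mean of at least 1 CPM. Wbp11, a splicing-associated gene, came first at a distance of 0.318, with 212, 300 and 314 counts in TKI libraries, against 77, 109 and 111 in TWT libraries. Cdk11b, a kinase gene, followed at 0.326, with 614, 765 and 779 counts in TKI libraries, against 303, 340 and 262 in TWT libraries. Gm6760 stood at 0.338, Sap18b at 0.358 and Gm11808 at 0.386. All 5 were higher in each TKI library than in any TWT library, by log2 fold changes of 1.07 to 1.37, which are smaller than that of Sgcb. The measure selects genes with a large difference between the genotypes, so those differences are no separate result.

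Other RNA of the 10 genes was scarce. The noncoding table holds 7 transcripts under their symbols, of Dmd, Sgcd, Sgce and Sntb1, and no Sgcb transcript was found in it. The most counted was an Sgcd transcript, ENSMUST00000154578, with 1, 3 and 0 counts in TKI libraries and 2, 0 and 2 in TWT libraries. None of the 7 could be tested, and 0.0968% of the 9301 tested noncoding transcripts passed.

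The circular RNA table holds 6 circles from these genes, from Utrn, Sntb2, Sgce and Dmd, and none was found for Sgcb. The most counted was a Utrn circle of 725 bases at mm10 chr10:12436281-12455564 on the minus strand, joined from annotated exons. It had 0, 5 and 2 counts in TKI libraries, against 3, 6 and 3 counts in TWT libraries, and the groups overlapped (log2 fold change -0.91 ± 0.96 SE; edgeR, adjusted p = 0.979). Of Sntb2, a circle of 1 exon, 214 bases long at chr8:106981126-106981339 on the plus strand, had 1, 0 and 6 counts in TKI libraries and 0 in each TWT library. It was above 0 in fewer than 3 libraries and was not tested. A longer Sntb2 circle from the same first base, reaching to 107001706, had 3, 3 and 0 counts in TKI libraries, against 0, 0 and 1 in TWT libraries. The 4 tested circles did not pass, and of 3887 tested circles 0% passed by edgeR, with 191 (4.91%) at an unadjusted p under 0.05, and 0 by DESeq2. With totals of 14381 to 20127 circle counts per library, differences in these circles were not detectable at this depth.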

How the data were processed

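Stranded total RNA libraries of whole mouse testis were sequenced, per the labels' protocols. The authors deposited whole-number counts per gene, noncoding transcript and circular RNA. They also deposited FPKM for linear RNAs and RPM for circles, per the file headers. The deposited tables further hold the authors' genotype means (a signal for circles), their log2 ratio and their p-values. Per the submitters' processing notes, reads were placed on mm10. Sources used here do not give the aligner, counter, strand use or test.

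Counts were tested with edgeR 4.0.16 (limma 3.58.1, R 4.3.3): quasi-likelihood, TMM, filterByExpr with minimum count 10 and total 15, two-sided, 3 TKI against 3 TWT libraries, Benjamini-Hochberg over all 15787 tested genes, threshold 0.05. Circles needed 3 libraries above 0. Alternatives were RLE and upper-quartile scaling, DESeq2 1.42.0, no filter, limma on FPKM with pseudocounts 0.1 and 1, a lowess length trend (span 0.3) removed, a replicate block, and leaving out each library. Variation between libraries beyond counting error, which may be technical (edgeR's common coefficient) was 11.1%. The fits were also run on simulated data with 200 changed genes and the same relative spread for every gene, unlike real libraries. The outcome is not reported here and is no support for the calls.

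The genes and lists were chosen with earlier results of these data known. All 10 genes of the complex are named; of the wider list, called genes or else the 3 largest log2 fold changes, with a few others that the report says were picked by level or after their values were seen; the 5 tested neighbours on each side of Sgcb; and the 5 most similar profiles. Positions come from RefSeq GRCm38.p6, matched by symbol. Single genes of the wider list that are withheld are not reported here.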

Additional observations from a re-analysis of the deposited data

How the results depend on the processing

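The number of genes called was 155, and it depended strongly on the test and the libraries. It was 460 with DESeq2, 251 and 263 with limma on log2(FPKM + 0.1) and log2(FPKM + 1), and 84 with the length trend removed. Leaving out 1 library gave 11 to 125 calls, with 11 without TKI library 3, 74 without TWT library 1, 32 without TWT library 2 and 20 without TWT library 3. The log2 fold change of Sgcb, a gene chosen from these same libraries, stayed between 1.74 and 1.88 when any library was left out. It was 1.24 on the log2(FPKM + 1) scale, where the added 1 shrinks low levels. No partner was called in any of the 14 alternatives, and their signs held except for Utrn, at -0.045 and -0.040 with limma on log2(FPKM + 0.1) and log2(FPKM + 1), and Dmd, which ran from -0.16 to 0.044 without 1 library (0.044 and 0.016 without TKI library 1 or 3). Of the wider list, 2 genes were called with DESeq2 (Dtnb, Plec) and 1 with the replicate block (Plec). Same-numbered libraries correlated at 0.142, 0.111 and 0.0148 in their deviations, and the other pairs from -0.151 to 0.039. For each TKI library the same-numbered TWT library had the highest correlation. The numbers were not taken as pairs because no pairing is stated, and these values do not settle whether they are pairs. With the replicate block 178 genes and 2 noncoding transcripts were called. Noncoding calls were 9, against 110 with DESeq2, 129 without a filter, and 6 to 15 without 1 library (15 without TKI library 3). Circle calls were 0 to 1 without 1 library (1 without TKI library 2). The causes were not tested. At 1 to 10 counts per library, depth limits what can be said of Sgcd and Sntb1 to their counting intervals.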
